A study of Mus musculus with 6 samples.

Results

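The EGF receptor ligands are a family of growth factors that share an EGF-like fold and bind the receptor EGFR, some of them ERBB4 as well. Their genes were chosen by symbol from a table of 12656 genes, and 5 of the 6 ligand genes named, Hbegf, Tgfa, Areg, Btc and Epgn, were measured. The sixth, Ereg, was not analysed here. Values come from 6 RNA sequencing libraries of 4T1, a mouse mammary carcinoma line labelled as triple-negative breast cancer, the class that lacks the oestrogen and progesterone receptors and HER2 amplification. DMSO, the solvent, was given to the cells of 3 libraries, and LP-184, a prodrug whose active form alkylates DNA, to those of the other 3. Treatment with LP-184 lasted 48 h. Its dose and the time in solvent are not stated in the sources. Both groups are the same line with no further genetic change in the labels, grown in culture without a host. Whether replicates were grown apart is not in the labels, and p-values therefore reflect the spread of these libraries, which may be technical.

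Each ligand is made as a transmembrane precursor, and a membrane protease, chiefly ADAM17 or ADAM10, cuts it to release the soluble factor. The released ligand joins EGFR molecules into dimers, alone or with ERBB2 or ERBB3, and the signal runs through adaptors, RAS and ERK to early-response transcription factors and to inhibitors that damp it. In the mammary gland amphiregulin, the product of Areg, carries the oestrogen signal for duct growth, and many carcinomas make ligands that act on the cells that secrete them.

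3 of the 5 ligand genes changed with LP-184, in opposite directions. Epgn, which encodes epigen, a low-affinity ligand, rose 2.74-fold. Tgfa, which encodes transforming growth factor alpha, fell 2.13-fold, and Hbegf, which encodes the heparin-binding EGF-like growth factor, fell 1.32-fold. Areg and Btc, the gene of betacellulin, did not pass the threshold. The call rule was an adjusted p under 0.05 by limma with Benjamini-Hochberg adjustment over 11931 genes. By this rule 78.3% of all genes tested were called, 38.3% as higher and 40.0% as lower, so the 3 of 5 ligands called are no larger a share than the background. All 5 ligands passed the filter on low values.

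3 of the 5 genes lie side by side in the genome. In the GENCODE annotation of GRCm38, Epgn (chromosome 5, 91027464 to 91035215, forward strand), Areg (chromosome 5, 91139599 to 91148432, forward strand) and Btc (chromosome 5, 91357261 to 91402994, reverse strand) form a cluster, together with Ereg. Tgfa is on chromosome 6 (86195223 to 86275719, forward strand). These intervals are whole genes with their exons, introns and untranslated regions. Tgfa spans 80.5 kb and Btc 45.7 kb, whereas Hbegf spans 10.9 kb, Areg 8.83 kb and Epgn 7.75 kb.

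The sequences before the start sites of Epgn, Areg and Tgfa are given because these genes show the 3 outcomes, a rise, no call and a fall. They are the RefSeq promoter windows of GRCm38.p6, 5′ to 3′ on the gene's strand, and end before the first base that GENCODE places in an exon. The intervals are chr5:91027267-91027463 for Epgn, chr5:91139349-91139598 for Areg and chr6:86194972-86195221 for Tgfa, all on the forward strand. Capitals mark matches on either strand to 5 motifs: TGANTCA (AP-1), TGACGT (the core of the cAMP response element), GGGCGG (GC box), TATAAA, known as the TATA box, and CCAAT.
Epgn: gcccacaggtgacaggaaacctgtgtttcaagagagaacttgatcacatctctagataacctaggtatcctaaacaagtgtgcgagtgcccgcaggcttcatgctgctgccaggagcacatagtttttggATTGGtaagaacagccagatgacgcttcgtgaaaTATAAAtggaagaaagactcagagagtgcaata
Areg: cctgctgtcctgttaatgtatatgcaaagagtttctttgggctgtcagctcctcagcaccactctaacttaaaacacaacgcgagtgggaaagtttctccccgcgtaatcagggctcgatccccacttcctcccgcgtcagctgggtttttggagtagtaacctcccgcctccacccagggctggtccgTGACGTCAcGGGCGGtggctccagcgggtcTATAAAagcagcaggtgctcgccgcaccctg
Tgfa: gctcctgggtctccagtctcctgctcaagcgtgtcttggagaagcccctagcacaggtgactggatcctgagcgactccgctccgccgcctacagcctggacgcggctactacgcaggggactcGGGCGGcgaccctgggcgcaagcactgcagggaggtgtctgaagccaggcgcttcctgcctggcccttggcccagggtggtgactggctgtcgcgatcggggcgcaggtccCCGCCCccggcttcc

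The 3 promoters differ in which of these letters they hold. Areg has the cAMP response element core on both strands, the 2 matches overlapping from position -61, a GC box at -52 and a TATA box at -31. Epgn has a TATA box 33 bases and a reverse-strand CCAAT box 67 bases before its first GENCODE exon. Tgfa has GC boxes at -126 and -15 and no TATA box in this window. The Btc window held none of the 5 motifs. Over 32851 promoter windows of the same length, which include 50 bases after the start, 7.51% held the cAMP response element core, 13.6% the TATA box, 35.7% the GC box, 37.4% CCAAT and 7.81% the AP-1 motif. None of the 4 ligand promoters searched, those of Areg, Btc, Epgn and Tgfa, held the AP-1 motif. The share of G and C in the printed stretch was 45.7% for Epgn, 57.2% for Areg and 69.2% for Tgfa, against a median of 52.4% over all windows. A match is a description of letters and shows no binding.

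Hbegf, on the reverse strand of chromosome 18 (36504927 to 36515805), was the ligand with the most reads. HB-EGF acts on EGFR and ERBB4 and is induced early in stressed and wounded epithelium. Its level was 6.76, 6.86 and 6.87 log2 CPM in DMSO replicates 1 to 3 and 6.41, 6.47 and 6.40 log2 CPM in LP-184 replicates 1 to 3. CPM is the read count scaled to an effective library size, which differs slightly from the sum of reads. All 3 LP-184 libraries lay below all 3 DMSO libraries, by a margin wider than the spread within either group. The mean fell from 114 ± 4.85 to 86.0 ± 2.07 CPM (SD, n = 3 each), a difference of -0.40 ± 0.04 in log2 CPM (SE, adjusted p = 1.8e-11 by limma). The reads behind these levels numbered 2019, 2490 and 2191 with DMSO and 1942, 1845 and 1614 with LP-184.

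Tgfa had the largest fall. TGF-alpha binds EGFR alone among the ERBB receptors and is a classic autocrine factor of carcinoma cells. Its level was 5.63, 5.67 and 5.78 log2 CPM with DMSO and 4.57, 4.67 and 4.56 log2 CPM with LP-184. The groups were apart, and within a group the libraries lay close together. The mean fell from 51.7 ± 2.81 to 24.2 ± 1.05 CPM (SD, n = 3 each), a difference of -1.09 ± 0.06 in log2 CPM (SE, adjusted p = 1.4e-17 by limma). It was 1 of 2 ligands, with Epgn, called at 2-fold or more, which held for 20.7% of all genes tested, 12.6% lower and 8.08% higher. A predicted transcript on the opposite strand, Gm43917, lies within the annotated span of Tgfa, and whether counting used the strand is not stated in the sources.

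Epgn started lowest and rose. Epigen binds EGFR weakly and signals for long because it is slow to be cleared with the receptor. Its level was 1.53, 1.36 and 0.98 log2 CPM with DMSO, from 52, 53 and 35 reads, and 2.72, 2.66 and 2.85 log2 CPM with LP-184, from 148, 130 and 136 reads. Every LP-184 library lay above every DMSO library, and the DMSO libraries were the more scattered. The mean rose from 2.38 ± 0.465 to 6.61 ± 0.463 CPM (SD, n = 3 each), a difference of 1.45 ± 0.19 in log2 CPM (SE, adjusted p = 1.4e-08 by limma).

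Areg did not differ by the test. Its level was 5.08, 4.89 and 5.03 log2 CPM with DMSO and 4.84, 4.95 and 4.87 log2 CPM with LP-184, so the groups overlapped through DMSO replicate 2. The means were 31.9 ± 2.20 and 29.5 ± 1.15 CPM (SD, n = 3 each). The difference was -0.11 ± 0.07 in log2 CPM (SE, adjusted p = 0.129 by limma), with a 95% interval from -0.25 to 0.03. The interval holds 0 as well as a fall of up to 0.25 on the log2 scale. Without DMSO replicate 2 the value for Areg was -0.17 (adjusted p = 0.0386 by limma), past the threshold.

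Btc did not differ either, and its libraries were scattered. Betacellulin binds EGFR and ERBB4. Its level was 3.35, 3.31 and 3.01 log2 CPM with DMSO and 2.96, 3.20 and 3.31 log2 CPM with LP-184, so each group covered nearly the same range. The difference was -0.07 ± 0.13 in log2 CPM (SE, adjusted p = 0.649 by limma), with a 95% interval from -0.33 to 0.20. Its sign turned under 4 alternatives, among them median centring (0.02) and quantile normalization (0.20), and no alternative called it.

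**Figure D1:**
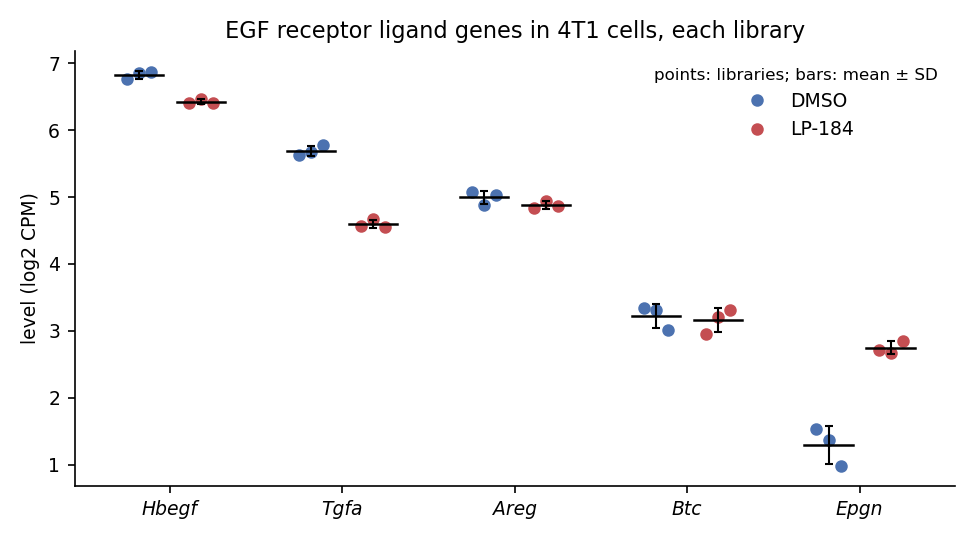
Level of each ligand gene in log2 CPM (vertical axis) by library, with blue points for DMSO, red points for LP-184, and black bars for the mean ± SD of 3 libraries. Hbegf and Tgfa lie lower and Epgn higher with LP-184 with no overlap, while Areg and Btc overlap.

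The groups did not overlap for 3 of the 5 ligands, against 79.1% of all genes tested. The direction of the calls did not depend on 1 library: leaving out each in turn gave log2 fold changes of 1.30 to 1.57 for Epgn, -1.13 to -1.05 for Tgfa and -0.44 to -0.38 for Hbegf. In the authors' deposited table the log2 fold changes were 1.47 for Epgn, -1.09 for Tgfa, -0.41 for Hbegf, -0.11 for Areg and -0.08 for Btc. That table gives adjusted p-values of 0.139 for Areg and 0.566 for Btc.

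Fold changes in these libraries fall with the span of the gene, and the ligands differ in span. A smooth curve of fold change on span put genes as long as Tgfa at -0.62, those like Btc at -0.12, and those like Areg, Hbegf and Epgn at 0.37, 0.33 and 0.38 on the log2 scale. With this trend subtracted, Tgfa was at -0.47 (limma adjusted p = 1.7e-07) and Hbegf at -0.73 (limma adjusted p = 3.4e-13). Areg was at -0.48 (limma adjusted p = 3.9e-06), Epgn at 1.07 (limma adjusted p = 4.3e-05) and Btc at 0.05 (limma adjusted p = 0.739). So the value of Tgfa shrank, that of Hbegf grew, and Areg passed the threshold as lower. In this setting Hbegf, not Tgfa, had the largest fall of the 5. The part of gene length in these differences was tested in no other way. Of the 11462 genes with a known span, 4045 were called higher and 4463 lower with the trend removed. These counts are the background for the trend-removed calls given below.

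**Figure D2:**
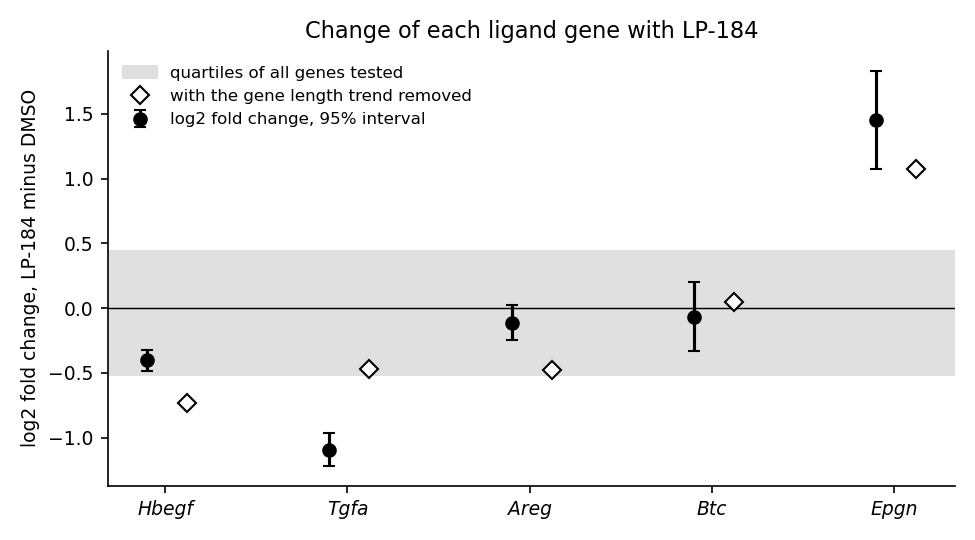
Log2 fold change of LP-184 over DMSO for each ligand gene, with filled points and 95% intervals from limma, and open diamonds for the value after removal of the trend with gene length. The grey band runs between the quartiles of all genes tested, from -0.51 to 0.44. The filled point of Epgn lies above the band and that of Tgfa below it. The band was drawn from values with the trend kept, so the open diamonds have no band of their own.

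Per length, Areg and Hbegf stood well above the other 3 ligands. Over merged exons, levels with DMSO were 26.2 ± 1.81 CPM per kb for Areg and 23.6 ± 1.00 for Hbegf, then 7.96 ± 0.432 for Tgfa, 2.06 ± 0.255 for Btc and 1.32 ± 0.257 for Epgn (SD, n = 3). Areg and Hbegf overlapped in range, and the other neighbours in this order did not. With LP-184 the levels were 24.3 ± 0.950 CPM per kb for Areg, 17.8 ± 0.428 for Hbegf, 3.73 ± 0.161 for Tgfa, 3.66 ± 0.256 for Epgn and 1.96 ± 0.246 for Btc. Tgfa and Epgn then overlapped, and Epgn lay above Btc in every library. The order at the top rests on the gene model: per kb of the longest coding transcript, a scaling added once the values had been seen, Hbegf was at 47.9 and Areg at 26.2 CPM per kb with DMSO, and Tgfa (5.34) stayed above Epgn (3.76) with LP-184. Epgn above Btc with LP-184, and below it with DMSO, held with merged exons and with both transcript lengths.

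The summed level of the 5 genes was lower with LP-184 and its make-up shifted. The sum over merged exons was 61.6, 59.6 and 62.2 CPM per kb with DMSO and 50.0, 53.0 and 51.2 CPM per kb with LP-184. Tgfa made up 12.4%, 13.2% and 13.6% of the sum in the DMSO libraries and 7.30%, 7.39% and 7.06% in the LP-184 libraries. Epgn made up 2.16% ± 0.438 with DMSO and 7.13% ± 0.598 with LP-184 (SD, n = 3 each). For Tgfa, Epgn, Areg and Hbegf alike, the DMSO and LP-184 ranges of the share did not overlap. The share of Areg was 42.9% ± 2.23 with DMSO and 47.2% ± 0.528 with LP-184, and that of Hbegf 38.5% ± 1.97 and 34.6% ± 0.524. Which of the 2 is larger rests on the gene model. Per kb of the longest transcript, Areg made up 32.5% with DMSO and 37.1% with LP-184, and Hbegf 48.8% and 45.6%. Shares are not independent of each other, and they are given without a test.

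**Figure D3:**
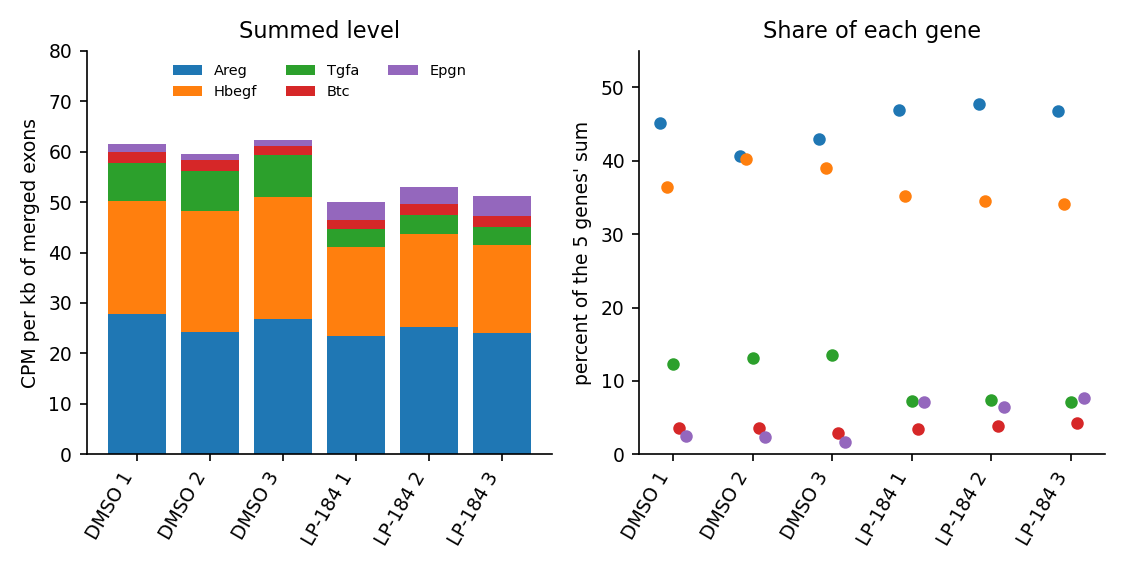
Left, summed level of the 5 ligand genes in each library, in CPM per kb of merged exons, stacked by gene. Right, the share of each gene in that sum in percent, in the same colours. Tgfa takes a smaller and Epgn a larger share in each of the 3 LP-184 libraries, where the sum lies between 50.0 and 53.0.

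Differences between ligands within a library need no scaling between libraries. The difference Tgfa minus Epgn was 4.40 ± 0.360 on the log2 scale with DMSO and 1.86 ± 0.152 with LP-184 (SD, n = 3 each). Hbegf minus Tgfa was 1.14 ± 0.0461 with DMSO and 1.83 ± 0.0270 with LP-184. Areg minus Btc was 1.77 ± 0.223 and 1.73 ± 0.164, and these overlapped.

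Of the receptors, EGFR itself was sparsely transcribed in this line. Egfr had 42, 38 and 36 reads in DMSO replicates 1 to 3 and 12, 10 and 10 reads in LP-184 replicates 1 to 3. It fell from 1.98 ± 0.246 to 0.510 ± 0.0265 CPM (SD, n = 3 each), a difference of -1.77 ± 0.32 in log2 CPM (SE, adjusted p = 5.4e-06 by limma), and was at -0.28 (limma adjusted p = 0.306) with the length trend removed, which ends the call. Erbb2, the receptor with no known ligand that pairs with the others, fell by 0.44 ± 0.06 on the log2 scale, from 41.5 ± 0.506 to 30.7 ± 2.23 CPM. Erbb3, the neuregulin receptor with a weak kinase, rose by 0.71 ± 0.06 on the log2 scale, from 31.1 ± 3.20 to 50.8 ± 0.760 CPM. Per length, the DMSO level of Egfr was 0.175 ± 0.0217 CPM per kb, against 7.96 ± 0.0971 for Erbb2 and 5.16 ± 0.532 for Erbb3. Erbb4 was not analysed here.

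Among 5 other ligand genes of the EGF family, Nrg1 and Nrg2 were measured, and both fell. Nrg1, the neuregulin 1 gene, whose product binds ERBB3 and ERBB4, had 379, 385 and 333 reads with DMSO and 66, 90 and 104 reads with LP-184. Its difference was -2.17 ± 0.15 in log2 CPM (SE, adjusted p = 5.7e-15 by limma). Nrg2, with 56 to 80 reads per DMSO library and 14 to 24 per LP-184 library, differed by -1.86 ± 0.26 in log2 CPM (SE, adjusted p = 6.8e-08 by limma). Neither call held with the length trend removed: Nrg1 was at 0.45 (limma adjusted p = 0.00605), now higher, and Nrg2 at -0.24 (limma adjusted p = 0.294).

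Genes that shed and carry the ligands moved both ways. Of 13 measured members of this list of 14, 6 rose and 7 fell, beside 38.3% higher and 40.0% lower over all genes tested. The list median was -0.16 on the log2 scale, against -0.01 over all genes. With the length trend removed, 3 of the 12 members with a known span were called higher and 7 lower. Adam12, a metalloprotease that cuts HB-EGF, fell by 3.41 ± 0.12 (SE) on the log2 scale, Adam19 fell by 1.53 ± 0.11, and Adam8 rose by 1.30 ± 0.09. With the length trend removed Adam12 was at -0.94 and Adam19 at -0.79. The principal sheddases were named after their values were seen: Adam17 fell by 0.16 on the log2 scale and Adam10, the main sheddase of betacellulin, by 1.27. The DMSO and LP-184 ranges of Adam17 overlapped, and with the length trend removed it was at 0.02 (limma adjusted p = 0.764), which ends the call. Adam10 was then at -0.42 (limma adjusted p = 4.8e-11).

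Of 17 adaptor and RAS-ERK cascade genes, 2 rose and 9 fell, 6 missed the threshold, and the list median was -0.48 on the log2 scale. The share called, 64.7%, was below the 78.3% of all genes tested. The median was -0.06 once the length trend was removed, with 4 members called higher, 9 lower and 4 not called. Ksr1, a scaffold of the cascade, fell by 1.24 ± 0.20 (SE) on the log2 scale, the exchange factor gene Sos2 by 0.96 ± 0.07 and the docking protein gene Gab1 by 0.89 ± 0.18. With the length trend removed they were at -0.06, -0.14 and 0.12, and only Sos2 of these 3 still passed (limma adjusted p = 0.0415). Of the 2 that rose, Map2k2, the gene of the kinase MEK2, was at 0.60 and Ptpn11 at 0.12, both named after their values were seen.

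Of 20 feedback inhibitors of the receptor and of ERK, 15 fell, 2 rose and 3 did not pass, where 40.0% of all genes were called lower. The list median was -0.57 on the log2 scale. Removal of the length trend gave a median of -0.20, with 11 members called lower, 4 higher and 5 not called. Nf1, which switches RAS off, fell by 2.06 ± 0.13 (SE) on the log2 scale, Lrig1, a membrane protein that promotes receptor degradation, by 1.91 ± 0.04, and Rasa1, a RAS GTPase activator, by 1.62 ± 0.05. With the length trend removed Nf1 was at 0.00 (limma adjusted p = 0.981), whereas Lrig1 (-1.12) and Rasa1 (-1.07) were still called.

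Of 10 genes in a signature of ERK output, 2 were called higher, 4 lower and 4 not at all, with a median of -0.01 on the log2 scale. The 40.0% called lower over all genes is the same share, and 78.3% of all genes were called in either direction. Ccnd1, the cyclin D1 gene, fell by 1.59 ± 0.02 (SE) on the log2 scale and Epha4 by 1.35 ± 0.14, while Dusp4, an ERK phosphatase gene, rose by 0.92 ± 0.04. Removal of the length trend gave 2 members called higher, 6 lower and 2 not called, with a median of -0.17. In that setting Epha4 was at -0.03 (limma adjusted p = 0.851), Ccnd1 at -1.93 and Dusp4 at 0.60. Spry2, Spry4, Dusp4 and Dusp6 are also in the list of feedback inhibitors. The number called higher was 1 without DMSO replicate 1.

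Of 14 immediate early genes tested, 7 rose and 6 fell, where 38.3% of all genes were called higher and 40.0% lower. The share called, 92.9%, was above the 78.3% of all genes tested. The list median was 0.24 on the log2 scale, and -0.08 with the length trend removed, when 7 were called higher and 7 lower. Atf3, a stress-induced transcription factor, rose by 3.52 ± 0.05 (SE) in log2 CPM and Klf4, another transcription factor, by 1.68 ± 0.09, while Fos, the partner of JUN in AP-1, fell by 1.63 ± 0.04. Egr2 and Egr3, of the same list, were below the filter on low values.

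**Figure D4:**
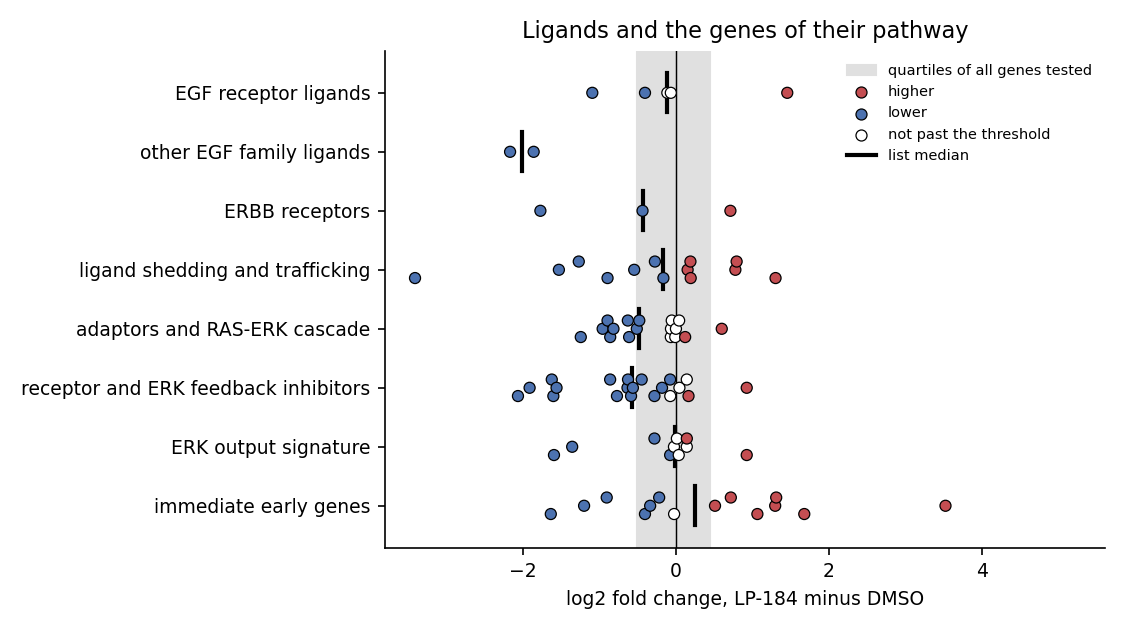
Log2 fold change of LP-184 over DMSO (horizontal axis) for every tested gene of the ligand list and of 7 pathway lists, with red for higher, blue for lower and white for genes past no threshold. Black bars are list medians and the grey band runs between the quartiles of all genes tested. Feedback inhibitors have a median of -0.57, or -0.20 with the length trend removed, and ligands lie on both sides of 0.

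Around the cluster on chromosome 5, 9 other genes were tested within 500 kb of a ligand gene. Of these, 5 rose, 3 fell and 1 did not pass, where 38.3% of all genes were called higher and 40.0% lower. The median of the 9 was 0.14 on the log2 scale. Removal of the length trend gave 3 called higher, 4 lower and 2 not called, with a median of -0.10. On the Epgn side, Mthfd2l, a mitochondrial folate enzyme gene that ends 6.10 kb from Epgn, fell by 1.05 ± 0.06 (SE) on the log2 scale, and was at -0.32 (limma adjusted p = 7.3e-06) with the length trend removed. Farther out on that side lies a set of neutrophil chemokine genes, of which Ppbp rose by 1.22 ± 0.19 and Cxcl2 by 1.38 ± 0.24, both at low levels. The others were named after their values were seen: the abundant Cxcl5 and Cxcl1 rose by 0.23 and 0.14, and Cxcl3 fell by 0.30 on the log2 scale. Once the length trend was removed, Ppbp was at 0.97, Cxcl2 at 1.11 and Cxcl3 at -0.59. Cxcl5 was then at -0.04 (limma adjusted p = 0.105), no longer called, and Cxcl1 at -0.12 (limma adjusted p = 0.00043), now lower. Beyond Btc, Parm1 rose by 1.51 ± 0.37, from 16, 10 and 6 reads with DMSO to 30, 57 and 23 reads with LP-184. After removal of the length trend its value was 2.44.

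**Figure D5:**
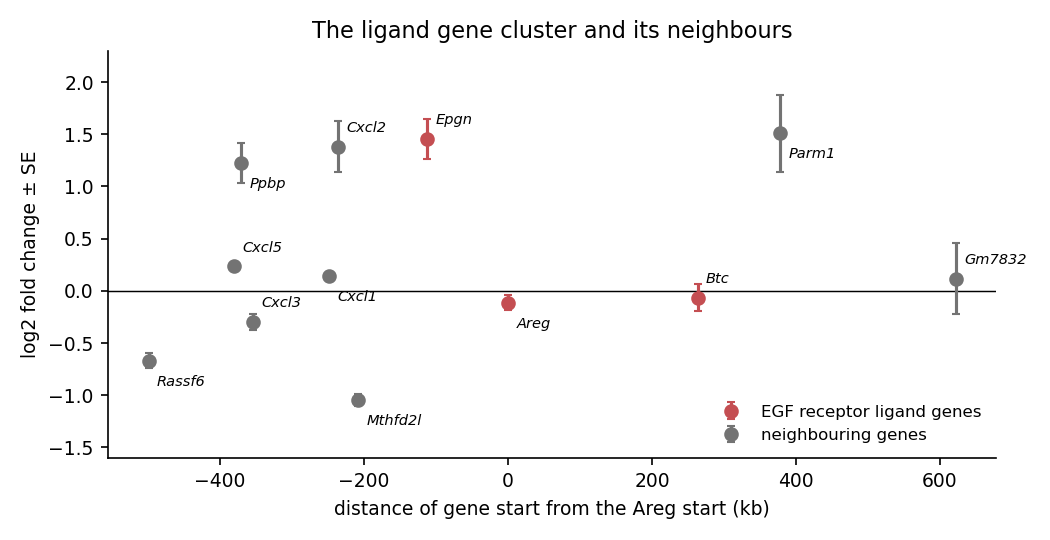
Log2 fold change with its SE (vertical axis) of the ligand genes (red) and of neighbouring genes (grey) on chromosome 5, by the distance of each gene's start from the Areg start in kb. Epgn, at -112 kb, is higher, while Areg at 0 and Btc at 263 kb lie near 0, and Mthfd2l next to Epgn is lower, at -1.05 before and -0.32 after removal of the length trend, which is not drawn.

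Genes near Tgfa and Hbegf also moved both ways. Around Tgfa, 7 of 16 genes tested rose, 6 fell and 3 did not pass. Around Hbegf, which fell, 10 of 18 rose, 4 fell and 4 did not pass. Over all genes 38.3% were called higher and 40.0% lower. Removal of the length trend gave 3 higher and 11 lower around Tgfa and 7 higher and 3 lower around Hbegf. In that setting 4045 of the 11462 genes with a known span were called higher and 4463 lower. The changes of 2-fold or more around Tgfa were those of Nat8f1 (1.77 ± 0.38, SE, on the log2 scale), Mxd1, a partner of MAX (1.10 ± 0.18), and Snrnp27, a splicing protein gene (-1.07 ± 0.06). Around Hbegf they were those of Nrg2, which lies 308 kb away, Apbb3 (1.21 ± 0.19), Ik, a splicing factor gene (1.07 ± 0.04), and Dnd1, which had 4, 4 and 0 reads with DMSO and 79, 60 and 51 reads with LP-184. Nat8f1 had few reads as well, 4, 7 and 14 with DMSO and 29, 40 and 29 with LP-184.

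Genes with the profile most like a ligand's were found by the root mean square distance between log2 CPM profiles centred on their mean, over 6 libraries. The nearest to Hbegf were Erlin1 (distance 0.019), Mre11a (0.025) and Olfm1 (0.027), and to Tgfa Lrp8 (0.038), Anxa3 (0.039) and Spire1 (0.041). Nearest to Epgn were Rbm4b (0.086), Trdv4 (0.10) and Trnp1 (0.10), to Areg Smim26 (0.015), Abraxas1 (0.021) and Dynlt1f (0.022), and to Btc Bmper (0.036), Amigo1 (0.056) and Zfp868 (0.064). Profiles of 3 against 3 libraries carry little beyond the size of the change, and the likeness is a description.

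The libraries held 18864368 to 22471753 reads over the genes of the table, and the DMSO and LP-184 ranges overlap. All 8 epithelial markers checked were present, with a summed level of 3596 to 3605 CPM with DMSO and 3623 to 3649 CPM with LP-184. Each of the 8 changed. The 6 that rose ran from Cldn7 (0.23 on the log2 scale) to the transcription factor gene Elf3 (2.77), while the keratin genes Krt8 (-0.47) and Krt18 (-0.34) fell. Over all genes tested, 38.3% were called higher and 40.0% lower. Removal of the length trend left 2 of the 8 called higher, Cdh1 and Elf3, 2 lower, Krt8 and Krt18, and 4 not called. The part of the epithelial markers in the ligand values was not tested. Of 10 markers of other cell types, 1 was measured, the myeloid gene Lyz2, with 24 to 42 reads in DMSO libraries and 0 in LP-184 libraries. The part of Lyz2 was not tested either. Of the receptors that define the breast cancer class, Esr1 was at 10.5 ± 1.11 CPM with DMSO and 0.381 ± 0.169 CPM with LP-184 (SD, n = 3 each), so transcripts of the oestrogen receptor were present in the solvent-treated libraries of this line. Per length the DMSO level was low, 0.768 ± 0.0812 CPM per kb. The difference of -4.51 in log2 CPM for Esr1 was -1.95 with the length trend removed. Erbb2 is described above, and Pgr, the progesterone receptor gene, was not analysed here.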

How the data were processed

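Polyadenylated RNA of 4T1 cells was sequenced in 6 libraries, per the labels. The authors deposited log2 CPM for 12656 genes and a table of their own log2 fold changes with p-values, made by a test that no source names. Tools listed in the submitters' processing notes, with no role or setting, include STAR 2.7, Subread 2.0 with featureCounts, fastp and edgeR, and the mouse build listed is mm10. Columns headed as controls were matched by number to the DMSO samples. Every library has the same value at 0 reads (-3.34), so a prior of about 2 reads was added, which understates changes of low genes. With it removed, 100% of values were whole reads (tolerance 1e-06). The library size behind the deposited CPM was 0.984 to 0.994 of the summed reads in the DMSO libraries. In the LP-184 libraries it was 1.007 to 1.016 of that sum, so each fold change includes this scaling between groups. Of values between 10 and 100 reads, 67.0% were even, so some reads were counted in pairs and are not independent molecules.

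The 11931 genes that reached a log2 CPM of 0 in 3 libraries or more were tested in R 4.3.3 with limma 3.58.1 (2 groups, mean-variance trend, two-sided, Benjamini-Hochberg, adjusted p under 0.05). Spans and exon lengths came from GENCODE (GRCm38), matched by symbol for 95.9% of genes, and promoters from RefSeq (4 of 6 ligand genes matched). The procedure was tested on simulated counts in which few genes or none changed, unlike in these data. The ligands and lists were chosen with earlier results of these data known. Genes were named by rule: all ligands and receptors, the 3 largest called changes of each list (or the 2 most abundant members where none was called), neighbours called at 2-fold or more, and the 3 nearest profiles. Other genes are marked as chosen after their values were seen. Alternatives were other scalings, pseudocounts of 1 and 0.1 CPM, filters, variance models, voom with library totals (added after seeing the data, in place of voom with TMM factors), an adjusted p under 0.01, each library left out, a replicate block and removal of the length trend (loess, span 0.3). A planned comparison of the ligands' protein sequences was not run.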

Additional observations from a re-analysis of the deposited data

How the results depend on the processing

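Under 18 alternatives Epgn (1.07 to 1.68), Tgfa (-1.13 to -0.47) and Hbegf (-0.73 to -0.32) kept their direction and their call, with an adjusted p of at most 0.000315, 2.2e-05 and 0.000435. Areg ranged from -0.48 to -0.02 (limma adjusted p 3.9e-06 to 0.756) and passed with the length trend removed (-0.48) and without DMSO replicate 2 (-0.17). Leaving out each library gave -0.168 to -0.0702 for Areg and -0.172 to 0.0339 for Btc. Btc turned sign with median centring (0.0207), quantile normalization (0.20), the length trend removed (0.0511) and without LP-184 replicate 1 (0.0339).

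With the length trend removed, the genes called were 1 higher and 0 lower among other EGF family ligands, 1 lower among receptors, 3 higher among shedding genes, 4 higher in the RAS-ERK cascade and 4 higher among feedback inhibitors. Nrg1 (0.45), Gab1 (0.12) and Bmper (2.07) then changed sign. With the stricter filter, which tests fewer genes, 1 other ligand and 1 receptor were called lower. Median centring gave 5 higher in the RAS-ERK cascade and 4 in the ERK output signature, which had 1 without the variance trend and 1 to 2 when each library was left out. The cause of these shifts was not tested. Genes near 0 changed sign with quantile normalization (Smim26 0.00865, Bmper 0.0818, Amigo1 0.219, Zfp868 0.0860) and median centring (Amigo1 0.0308, Zfp868 0.0386). Leaving out each library gave -0.192 to 0.0143 for Bmper, -0.181 to 0.0640 for Amigo1 and -0.138 to 0.0378 for Zfp868, the highest values without LP-184 replicate 1.

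Per kb of the longest transcript, the DMSO and LP-184 levels were 39.4 and 29.8 CPM per kb for Hbegf and 11.4 and 5.34 for Tgfa. Per kb of the longest coding transcript, chosen after seeing the data, they were 47.9 and 36.2 for Hbegf, 11.4 and 5.34 for Tgfa, and 3.23 and 3.09 for Btc. Within 200 kb of the chromosome 5 ligands, 3 genes were tested, 2 higher and 1 lower.

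No pairing by replicate number was seen: deviations of same-numbered libraries correlated at -0.018 to -0.0065, and those of other pairs at -0.023 to 0.034. With the replicate number as a block, the log2 fold changes were the same and no call among the ligands or the lists' counts changed, with an adjusted p of 0.153 for Areg and 5.3e-08 for Epgn. Voom with TMM factors was not run, and voom with library totals took its place.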
